A study of Mus musculus with 26 samples.

Results

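The proteasome subunit genes described here are the 48 genes whose symbol begins with Psm, followed by a letter from a to g and a number, out of 22322 gene symbols measured in mouse liver. They were chosen by name alone, and the best expressed of a gene's transcripts stands for the gene, since the 48 genes had 87 transcripts and 20 of them had more than 1. By role they comprise 8 alpha and 7 beta subunits of the core, 3 catalytic subunits of the immunoproteasome, 1 of the thymoproteasome, 6 ATPases and 11 non-ATPase subunits of the regulatory particle, 2 interferon-induced activator subunits, 3 other activators or inhibitors and 7 assembly chaperones.

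RNA-seq was done on 20 livers of mice aged 8 weeks, kept in a 12-hour light and 12-hour dark cycle for 1 week and then in darkness for 2 days, so that CT0 is the time at which the lights would have come on and CT12 the time 12 hours later. In the Bmal1 experiment, livers labelled Bmal1 knockout (a liver-specific knockout, whose Cre driver is not given in the sources used here) and livers of wild-type C57BL/6 controls were sampled at CT12 and at CT0, with 3 livers in each of the 4 groups. In the Nr1d1 experiment, livers labelled Nr1d1 knockout and livers of wild-type C57BL/6 controls were sampled at the same times, with 2 livers in each group. BMAL1 is the activator at the centre of the circadian clock, and NR1D1 (REV-ERBα) is a clock repressor that acts on the Bmal1 gene, among others. A liver-specific knockout leaves the gene in other organs and, depending on the driver, in some liver cells.

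The targeted genes did not fall in every labelled knockout group. Arntl, the gene of BMAL1, had 3.59 to 4.37 RPKM in labelled Bmal1 knockout livers at CT12, against 0.680 to 1.26 RPKM in controls, and 5.73 to 7.45 RPKM in labelled knockout livers at CT0, against 15.7 to 16.3 RPKM in controls. RPKM is a read count divided by transcript length in kilobases and by library depth, so levels can be compared between genes. For a gene with several transcripts the level depends on the transcript that stands for it. Nr1d1 had 11.1 and 28.4 RPKM in labelled Nr1d1 knockout livers at CT12 (replicates 1 and 2), against 3.45 and 33.4 RPKM in controls, and 6.10 and 32.9 RPKM at CT0, against 0.374 and 22.0 RPKM in controls. A value for a whole transcript cannot show a partial deletion, so these values neither show nor exclude one, and the groups are called labelled knockouts throughout. Arntl had 8.00 and 19.3 RPKM in labelled Nr1d1 knockouts at CT12 (replicates 1 and 2), against 0.597 and 1.30 RPKM in controls. At CT0 it had 8.03 and 19.9 RPKM, against 8.92 and 39.7 RPKM. Nr1d1 had 0.271 to 0.801 RPKM in labelled Bmal1 knockouts at CT0, against 2.04 to 6.57 RPKM in controls. At CT12 it had 0.968 to 1.61 RPKM, against 1.56 to 2.95 RPKM. What these values owe to the knockouts was not tested. Among the Bmal1 livers, the summed RPKM of 8 hepatocyte markers was 27960 to 31515 in labelled knockouts at CT12, against 39333 to 48297 in controls, and 32648 to 36992 in labelled knockouts at CT0, against 46940 to 52313 in controls. Albumin (Alb), the most abundant of them, had a log2 difference between labelled knockouts and controls of -1.05 ± 0.14 (SE) at CT12 and -0.93 ± 0.14 at CT0. The median log2 difference of the 8 markers was 0.09 at CT12 and 0.10 at CT0, so the lower sums do not describe the 8 as a set. The part of these markers in the results below was not tested. In the Nr1d1 experiment, the labels mark replicate 2 as paired-end and its RPKM values ran several times higher, so those livers are compared within a replicate.

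The proteasome is the protease that degrades most ubiquitin-tagged proteins of the cell. Its barrel-shaped core has outer rings of alpha subunits, which gate the entrance, and inner rings of beta subunits, of which Psmb5, Psmb6 and Psmb7 carry the active sites. A regulatory particle on the end of the core binds ubiquitin, removes it and unfolds the substrate with a ring of ATPases. Interferon induces Psmb8, Psmb9 and Psmb10, which replace Psmb5, Psmb6 and Psmb7 in newly built cores, the immunoproteasome, together with the activator subunits Psme1 and Psme2, and this shifts the peptides made for antigen presentation.

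Promoters were examined because BMAL1 binds the E-box, because NRF1 (the factor known to raise proteasome genes when proteasome activity is short) binds antioxidant response elements, and because interferon acts through GAAA repeats. RefSeq promoters of 300 bases (250 before and 50 after the start, build GRCm38.p6) were at hand for 40 of the 48 genes. The E-box CACGTG was found in 4 of the 40 (Psma4, Psmb10, Psmd9 and Psme3), which is 10.0%, against 8.09% of the 27025 genes with a promoter in the table. A gene counts where any of its listed promoters holds the letters. The interferon element (GAAA, any 2 bases, GAAA), searched on both strands like the others, was found in 5 (Psmb3, Psmd4, Psmd9, Psme1 and Psmg4), which is 12.5%, against 3.99% of all these genes. The loose antioxidant element TGANNNNGC was found in 23, which is 57.5%, against 45.0%, its stricter form TGACNNNGC in 6, which is 15.0%, against 14.0%, and the exact TGACTCAGC in 0 of the 40, against 0.503%. CCAAT was found in 14, which is 35.0%, against 41.1%. TGANNNNGC contains every match of the other antioxidant forms. These counts are descriptions of letters, and repeats in the sequences were not annotated. The promoters of 3 genes that were called in the Bmal1 experiment are shown: both called genes with an E-box, written in capitals, and Psmd11, in which neither the E-box nor the interferon element was found. Each is written 5′ to 3′ on the strand of its gene, at chr8:105938343-105938642 (minus strand) for Psmb10, chr11:101315963-101316262 (plus strand) for Psme3 and chr11:80428365-80428664 (plus strand) for Psmd11.
Psmb10: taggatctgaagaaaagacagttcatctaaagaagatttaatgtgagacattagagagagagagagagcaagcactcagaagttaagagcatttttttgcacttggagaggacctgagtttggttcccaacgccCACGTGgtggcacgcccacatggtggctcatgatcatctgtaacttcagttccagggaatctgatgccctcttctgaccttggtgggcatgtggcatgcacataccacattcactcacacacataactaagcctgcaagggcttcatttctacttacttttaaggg
Psme3: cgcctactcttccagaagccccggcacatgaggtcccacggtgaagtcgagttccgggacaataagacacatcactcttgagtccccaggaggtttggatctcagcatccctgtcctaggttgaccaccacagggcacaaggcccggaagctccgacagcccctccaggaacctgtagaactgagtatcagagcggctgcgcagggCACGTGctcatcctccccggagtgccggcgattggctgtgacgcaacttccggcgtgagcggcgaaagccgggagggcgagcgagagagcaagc
Psmd11: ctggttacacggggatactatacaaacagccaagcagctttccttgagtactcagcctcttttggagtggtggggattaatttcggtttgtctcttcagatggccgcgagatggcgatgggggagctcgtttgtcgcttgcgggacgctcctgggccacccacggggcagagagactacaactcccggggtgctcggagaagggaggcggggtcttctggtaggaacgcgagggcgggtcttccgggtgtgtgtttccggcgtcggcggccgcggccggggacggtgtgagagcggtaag
The E-box began 116 bases before the start of Psmb10 and 44 bases before that of Psme3. Which start each gene used in these livers was not tested.

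In the Bmal1 livers, core subunits and the interferon-induced activators were the most abundant messages by class median, and the immunoproteasome subunits and the chaperones the least abundant apart from Psmb11. Averaged over the 12 Bmal1 livers, the median gene had 82.6 RPKM among core beta subunits, 71.5 RPKM among alpha subunits, 55.5 RPKM among ATPases and 43.9 RPKM among non-ATPase subunits. It had 18.7 RPKM among the 3 immunoproteasome subunits and 8.16 RPKM among the chaperones. Psma3, an alpha subunit, was the most abundant (114 RPKM on average, 99.3 to 127 RPKM over the livers), followed by Psme1 at 99.6 (85.2 to 111), Psmb7 at 98.1 (87.0 to 113) and Psme2 at 97.6 RPKM (78.6 to 122). The ranges of these 4 genes overlapped. All levels are those of the best expressed transcript. For Psmd11 that transcript had 52.4 RPKM on average in labelled knockouts at CT0, against 25.3 RPKM for another of its transcripts. For Psme3 these were 29.5 and 13.8 RPKM. The order of genes with several transcripts thus holds for the chosen transcripts only.

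Within the alpha subunits, the lowest were Psma5 (40.4 RPKM) and Psma8 (0.543 RPKM), the alpha subunit known from testis. Within the beta subunits, Psmb1, which has no active site, had 92.8 RPKM, Psmb2 had 53.4 RPKM and Psmb5, the chymotrypsin-like subunit, had 42.4 RPKM. Among the ATPases, Psmc1 (60.4 RPKM) and Psmc3 (58.3 RPKM) were highest and Psmc5 (34.1 RPKM) and Psmc2 (30.4 RPKM) lowest. Messages of subunits of the same complex thus differed in level.

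Of the non-ATPase subunits, the scaffold Psmd2 (67.2 RPKM) and Psmd8 (59.9 RPKM) led, and Psmd3 (30.6 RPKM) and Psmd7 (19.4 RPKM) were lowest. Psme4, the nuclear activator PA200, had 35.8 RPKM, Psme3, the nuclear activator PA28γ, had 32.4 RPKM, and the inhibitor Psmf1 had 13.0 RPKM. Of the chaperones, Psmd5, which binds an ATPase, had 21.2 RPKM and Psmg1, which builds the alpha ring, 16.5 RPKM, while Psmg4 and Psmd10 had 5.61 and 5.25 RPKM. Psmb11, the thymoproteasome subunit of the thymic cortex, had 0.0064 RPKM and at most 1 recovered read in a liver, so it was not tested. Behind each value stood at least 231 to 535 reads a liver for Psmb10, 296 to 646 for Psmd11 and 111 to 212 for Psmg2, counted as whole steps of RPKM, and 42 of the 48 genes had at least 100 in every liver.

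**Figure D1:**
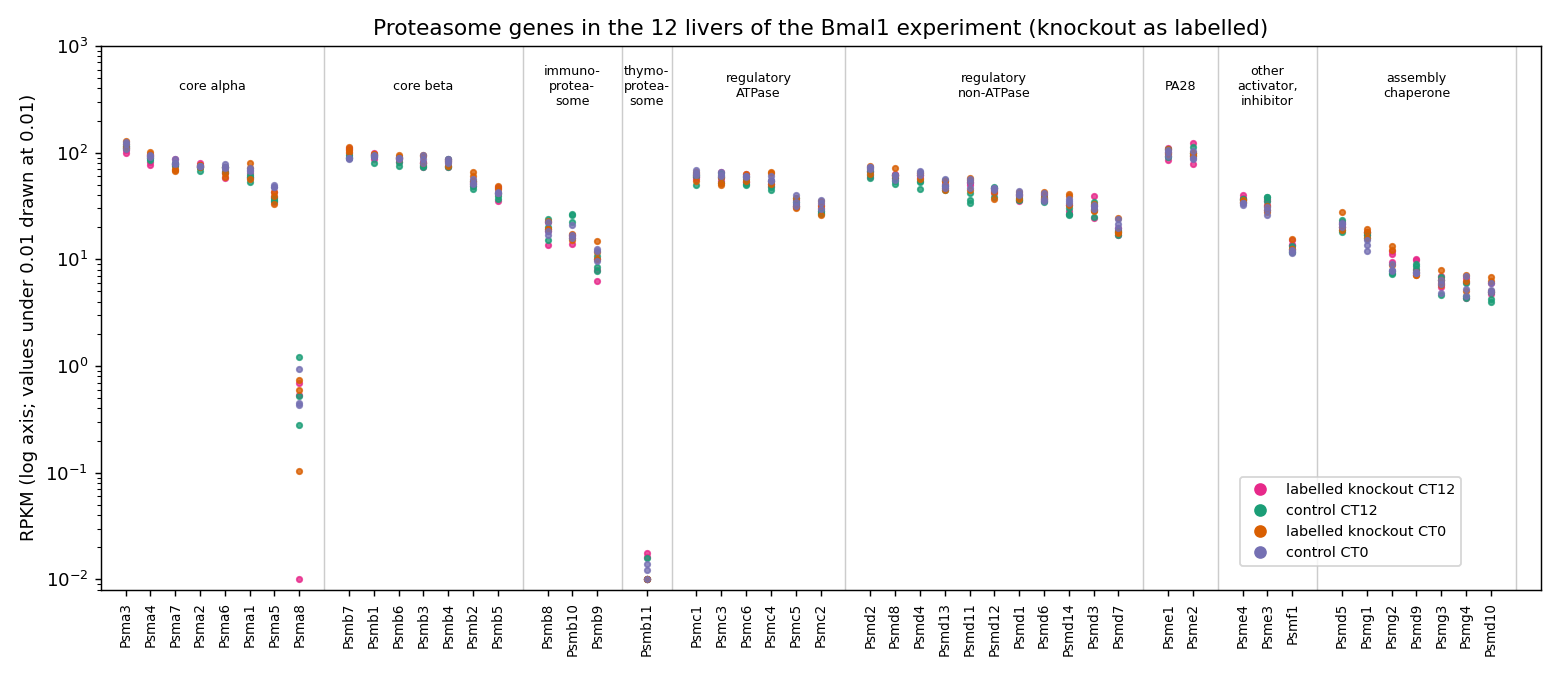
RPKM of the 48 proteasome genes in each of the 12 livers of the Bmal1 experiment, on a log axis, by class and in falling order of the mean; each point is 1 liver, coloured by group. Psma3 lies highest (99.3 to 127 RPKM), most immunoproteasome and chaperone genes lie below the core and regulatory genes (the chaperone Psmd5, at 21.2 RPKM, lies above the regulatory subunit Psmd7, at 19.4 RPKM), and Psma8 and Psmb11 lie lowest.

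In the Nr1d1 livers of replicate 1, the median gene had 77.5 RPKM among core beta subunits, 60.1 RPKM among alpha subunits, 40.5 RPKM among ATPases, 32.0 RPKM among non-ATPase subunits, 15.6 RPKM among immunoproteasome subunits and 7.16 RPKM among chaperones. In replicate 2 these were 350, 265, 174, 158, 112 and 37.2 RPKM. The order of these 6 classes was thus that of the Bmal1 livers, but the 3 other activators or inhibitors had a median of 56.7 RPKM in replicate 2, below the immunoproteasome subunits, against 32.4 RPKM in the Bmal1 livers, above them.

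Across the 12 Bmal1 livers the proteasome messages varied little. The highest liver was a median 1.37 times the lowest (RPKM + 0.5) for the 46 of them with a mean of at least 5 RPKM, against 1.57 times for all 6378 genes at that level, and 32 of the 46 (69.6%) stayed within 1.5-fold, against 40.5% of all genes. Psma2, an alpha subunit, varied least, at 1.17 times. The widest spreads in this range were those of Psmb9 (2.26 times), Psmb10 (1.87), Psmg2 (1.79), Psmb8 (1.72) and Psmd11 (1.70), which include all 3 immunoproteasome subunits. Recovered reads were at least 39 to 97 a liver for Psmb9 and 160 to 342 for Psmb8. Members and all genes shared only the floor of 5 RPKM and were not matched on level. The part of read counts in these spreads was not tested.

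At CT12, labelled Bmal1 knockout livers differed from controls in 3 of the 47 proteasome genes tested, by limma on log2(RPKM + 0.5) with Benjamini-Hochberg adjustment over all genes (adjusted p under 0.05). This is 6.38% of the members, against 9.68% of all 11439 genes, so the share of called genes was close to that of all genes. Psmd11 and Psmg2 were higher (6.46% of all genes were higher) and Psmb10 was lower (3.22% of all genes were lower). The median log2 difference was 0.06 for the proteasome genes and 0.09 for all genes.

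Psmb10, the trypsin-like catalytic subunit of the immunoproteasome, had 16.4, 13.9 and 16.9 RPKM in labelled knockout livers at CT12, against 26.1, 26.4 and 22.5 RPKM in control livers. The groups did not overlap, and the highest labelled knockout liver lay below the lowest control. The mean was 15.7 ± 1.60 RPKM in labelled knockouts and 25.0 ± 2.16 RPKM in controls (SD, n = 3 each), a log2 difference of -0.65 ± 0.12 (SE) with an adjusted p of 0.0044. It passed the test under each of 21 alternatives, with log2 differences of -0.75 to -0.57 and adjusted p of 0.00192 to 0.0216.

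Psmd11, a scaffold of the lid of the regulatory particle that clamps it to the core, had 52.5, 53.1 and 50.0 RPKM in labelled knockout livers at CT12, against 36.0, 33.6 and 41.6 RPKM in control livers. All labelled knockout livers lay above all controls. The log2 difference was 0.48 ± 0.11 with an adjusted p of 0.0185, and all 6 transcripts listed for the gene lay between 0.48 and 0.55, though transcripts of 1 gene share reads. The call was lost (adjusted p up to 0.0701) without labelled knockout CT12 replicate 1 or 2 or control CT12 replicate 1 or 2, with median centring and with no filter on RPKM.

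Psmg2, which pairs with Psmg1 as a chaperone of the alpha ring, had 9.50, 11.2 and 12.1 RPKM in labelled knockout livers at CT12, against 7.43, 7.27 and 7.82 RPKM in control livers. These groups did not overlap either, and the labelled knockout livers were the higher. The log2 difference was 0.51 ± 0.14 with an adjusted p of 0.0456, which lies close to the threshold and passed it in 7 of 21 alternatives (adjusted p up to 0.145, and 0.0544 with replicate number as a block). The number of called proteasome genes was 1 without labelled knockout CT12 replicate 2, control CT12 replicate 1 or control CT12 replicate 2.

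The other members did not pass the test at CT12. All 7 core beta subunits had log2 differences above 0 (0.04 to 0.20), but with median centring of the libraries only 2 of the 7 did. The largest of them was Psmb7, the constitutive counterpart of Psmb10, with 98.6, 109 and 110 RPKM in labelled knockout livers, against 95.8, 89.8 and 90.1 RPKM in controls, and 0.20 ± 0.08 on the log2 scale (adjusted p = 0.126). Psmb7 overlaps another annotated gene, Gm13586, and the strand setting of the counting is not given in the sources used here. Psmd4, a ubiquitin receptor of the regulatory particle, was at 0.25 ± 0.08 (adjusted p = 0.0852). Groups did not overlap for 7 members that were higher in labelled knockouts (19.9% of all genes) and 1 that was lower (8.03% of all genes), which together is 17.0% of the 47 members tested, against 27.9% of all genes.

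At CT0 no proteasome gene passed the test between labelled Bmal1 knockout and control livers, against 1.62% of all genes. By limma, 5 of the 47 members tested had an unadjusted p under 0.05, against 1559 of all 11439 genes. The median log2 difference was 0.02 for the members and 0.01 for all genes. Psmg2 had 13.4, 8.82 and 12.3 RPKM in labelled knockout livers, against 8.99, 7.79 and 7.94 RPKM in controls, where labelled knockout replicate 2 fell within the range of the controls. Its log2 difference was 0.44 ± 0.14 (adjusted p = 0.179), and 0.61 with an adjusted p of 0.0351 without that liver. Psmg1 had 18.1, 15.9 and 19.2 RPKM in labelled knockout livers, against 11.9, 13.7 and 15.1 RPKM in controls, without overlap, at 0.38 ± 0.10 (adjusted p = 0.106). The lowest were Psma5 at -0.34 ± 0.11 (adjusted p = 0.159) and Psma7, another alpha subunit, at -0.23 ± 0.08 (adjusted p = 0.195). Psmb10 was at -0.14 ± 0.12 (adjusted p = 0.685) and Psmd11 at 0.00 ± 0.11 (adjusted p = 0.999). Groups did not overlap for 4 members that were higher in labelled knockouts (10.8% of all genes) and 3 that were lower (9.07% of all genes), which together is 14.9% of the members, against 19.9% of all genes.

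**Figure D2:**
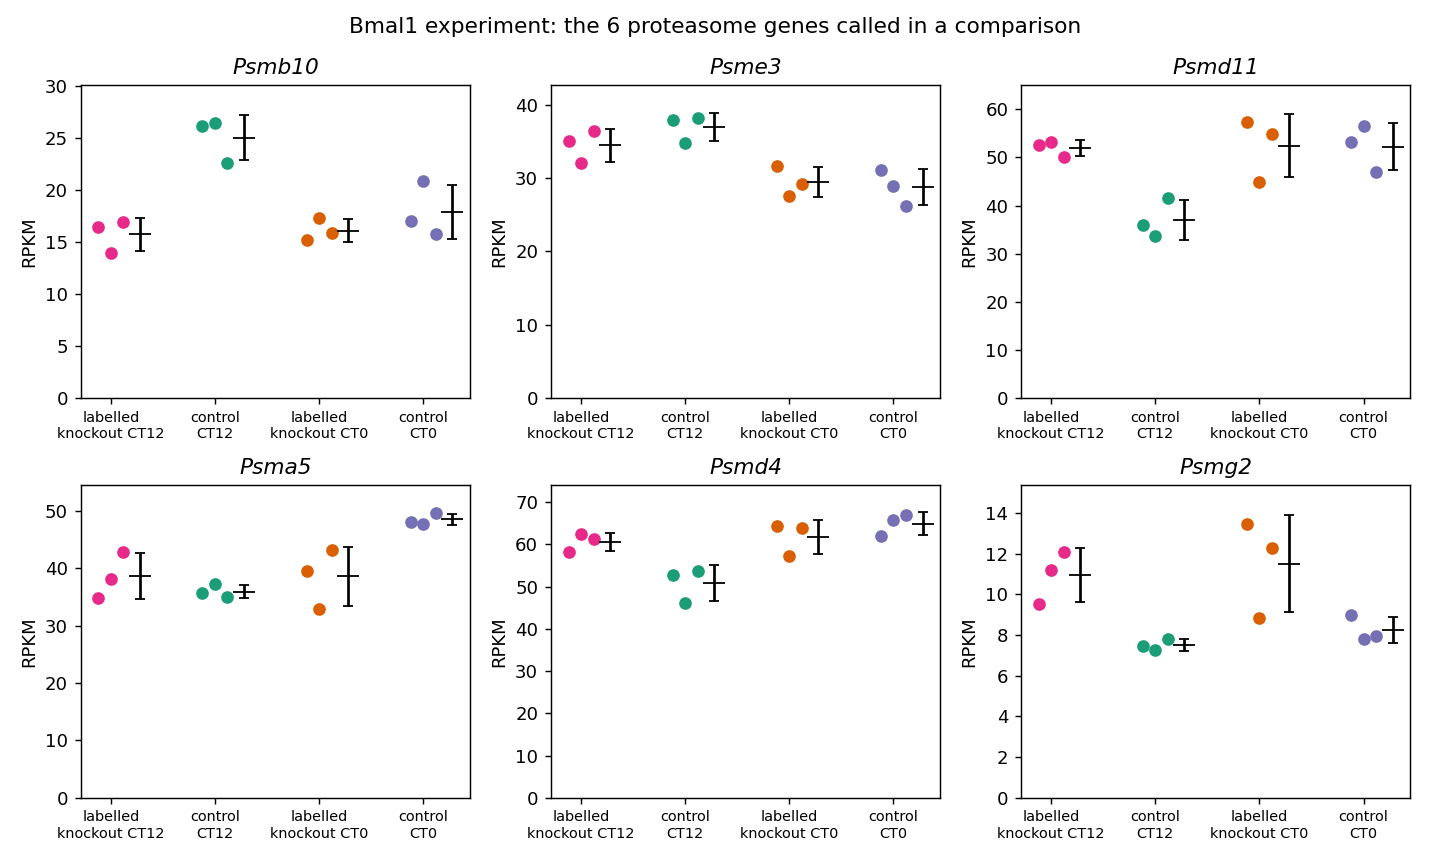
RPKM of the 6 proteasome genes called in a comparison of the Bmal1 experiment, in labelled knockout and control livers at CT12 and CT0; each point is 1 liver, and bars give mean ± SD (n = 3). Psmb10 is highest in control livers at CT12 (22.5 to 26.4 RPKM) and Psmd11 lowest there (33.6 to 41.6 RPKM), while Psmg2 is higher in labelled knockouts than in controls at CT12.

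Between CT12 and CT0 in control livers, 5 of the 47 proteasome genes passed the test, which is 10.6%, against 10.8% of all genes. Psmb10 and Psme3 were higher at CT12 (3.4% of all genes were higher), and Psmd11, Psma5 and Psmd4 were lower (7.43% of all genes were lower). The median log2 difference was -0.09 for the members and -0.08 for all genes. This comparison uses the same control livers at CT12 as the genotype comparison at CT12, so the values of Psmb10 and Psmd11 in both rest in part on the same 3 livers.

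Psmb10 in controls had the 26.1, 26.4 and 22.5 RPKM given above at CT12, against 17.0, 20.8 and 15.8 RPKM at CT0, without overlap, and its log2 difference was 0.48 ± 0.12 (adjusted p = 0.0251). Psme3 had 38.0, 34.8 and 38.3 RPKM at CT12, against 31.1, 28.9 and 26.2 RPKM at CT0, at 0.36 ± 0.09 (adjusted p = 0.0285). Both genes lay higher at CT12 than at CT0 in every control liver. They were printed above because they were called, and each was called in this comparison, so this cannot bear on the E-box. The other E-box genes did not pass the test: Psmd9, a chaperone of the ATPase ring, was higher at CT12 without overlap, and Psma4 was lower without overlap.

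Psmd11 had 36.0, 33.6 and 41.6 RPKM in controls at CT12, against 53.1, 56.6 and 46.9 RPKM at CT0, at -0.49 ± 0.11 (adjusted p = 0.0179). Psma5, an alpha subunit, had 35.6, 37.2 and 35.0 RPKM at CT12, against 48.0, 47.8 and 49.7 RPKM at CT0, at -0.43 ± 0.11 (adjusted p = 0.0240). Psmd4 had 52.7, 46.1 and 53.7 RPKM at CT12, against 62.0, 65.8 and 67.0 RPKM at CT0, at -0.35 ± 0.08 (adjusted p = 0.0216). For none of these 3 did the groups overlap. Leaving out 1 control liver lowered the count of called members to 1 (without CT12 replicate 1, CT0 replicate 2 or CT0 replicate 3), 2 (without CT12 replicate 2 or CT0 replicate 1) or 3 (without CT12 replicate 3), and with no filter on RPKM it was 2. Each of the 5 calls was lost in 4 to 6 of 21 alternatives, with adjusted p of at most 0.106.

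By class, all 6 ATPases and all 11 non-ATPase subunits had log2 differences below 0 between CT12 and CT0 in controls, with a median of -0.18 in each class. With median centring 5 of the 6 and 8 of the 11 stayed below 0 (median -0.11 in each). In the Nr1d1 controls the blocked fit gave log2 differences above 0 for 5 of the 6 ATPases and 5 of the 11 non-ATPase subunits. Of the 46 members tested there, 35 were above 0. The median log2 difference of all genes was 0.08 in the Nr1d1 controls, against -0.08 in the Bmal1 controls. Counts around 0 shift with these medians, and centred counts are not given for the Nr1d1 controls. In the Bmal1 controls Psmd14, the deubiquitinase of the lid, had 25.8, 26.6 and 30.0 RPKM at CT12, against 37.2, 33.5 and 34.9 RPKM at CT0, at -0.35 ± 0.11 (adjusted p = 0.0617). Over all members, groups did not overlap for 6 that were higher at CT12 (10.7% of all genes) and 15 that were lower (22.8% of all genes), which together is 44.7% of the 47 members tested, against 33.5% of all genes.

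In labelled Bmal1 knockout livers no proteasome gene passed the test between CT12 and CT0, against 1.9% of all genes. By limma, 7 of the 47 members tested had an unadjusted p under 0.05, against 2202 of all 11439 genes. Psmb10 had the 16.4, 13.9 and 16.9 RPKM given above at CT12, against 15.2, 17.3 and 15.9 RPKM at CT0, and the groups overlapped, at -0.03 ± 0.12. Psmd11 had 52.5, 53.1 and 50.0 RPKM at CT12, against 57.4, 45.0 and 54.8 RPKM at CT0, and overlapped too, at -0.01 ± 0.11. For both genes the values of labelled knockouts at both times overlapped those of controls at CT0. The lowest log2 differences were those of Psmb9 (-0.56 ± 0.19, adjusted p = 0.136) and Psmd14 (-0.36 ± 0.11, adjusted p = 0.112), and the highest those of Psmd9 (0.32 ± 0.10, adjusted p = 0.115) and Psme3 (0.22 ± 0.09, adjusted p = 0.215). Groups did not overlap for 4 members that were higher at CT12 (11.4% of all genes) and 1 that was lower (11.2% of all genes), which together is 10.6% of the members, against 22.7% of all genes.

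The difference between the genotype effects at CT12 and CT0 was tested directly as the interaction of genotype and time. No proteasome gene passed, against 1.31% of all genes. By limma, 5 of the 47 members tested had an unadjusted p under 0.05, against 1356 of all 11439 genes. Psmb10 had an interaction of -0.51 ± 0.17 (adjusted p = 0.224), Psmd11 of 0.48 ± 0.16 (adjusted p = 0.227) and Psma5 of 0.43 ± 0.15 (adjusted p = 0.253). A genotype effect that depends on the time was therefore not shown for any of them after adjustment.

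**Figure D3:**
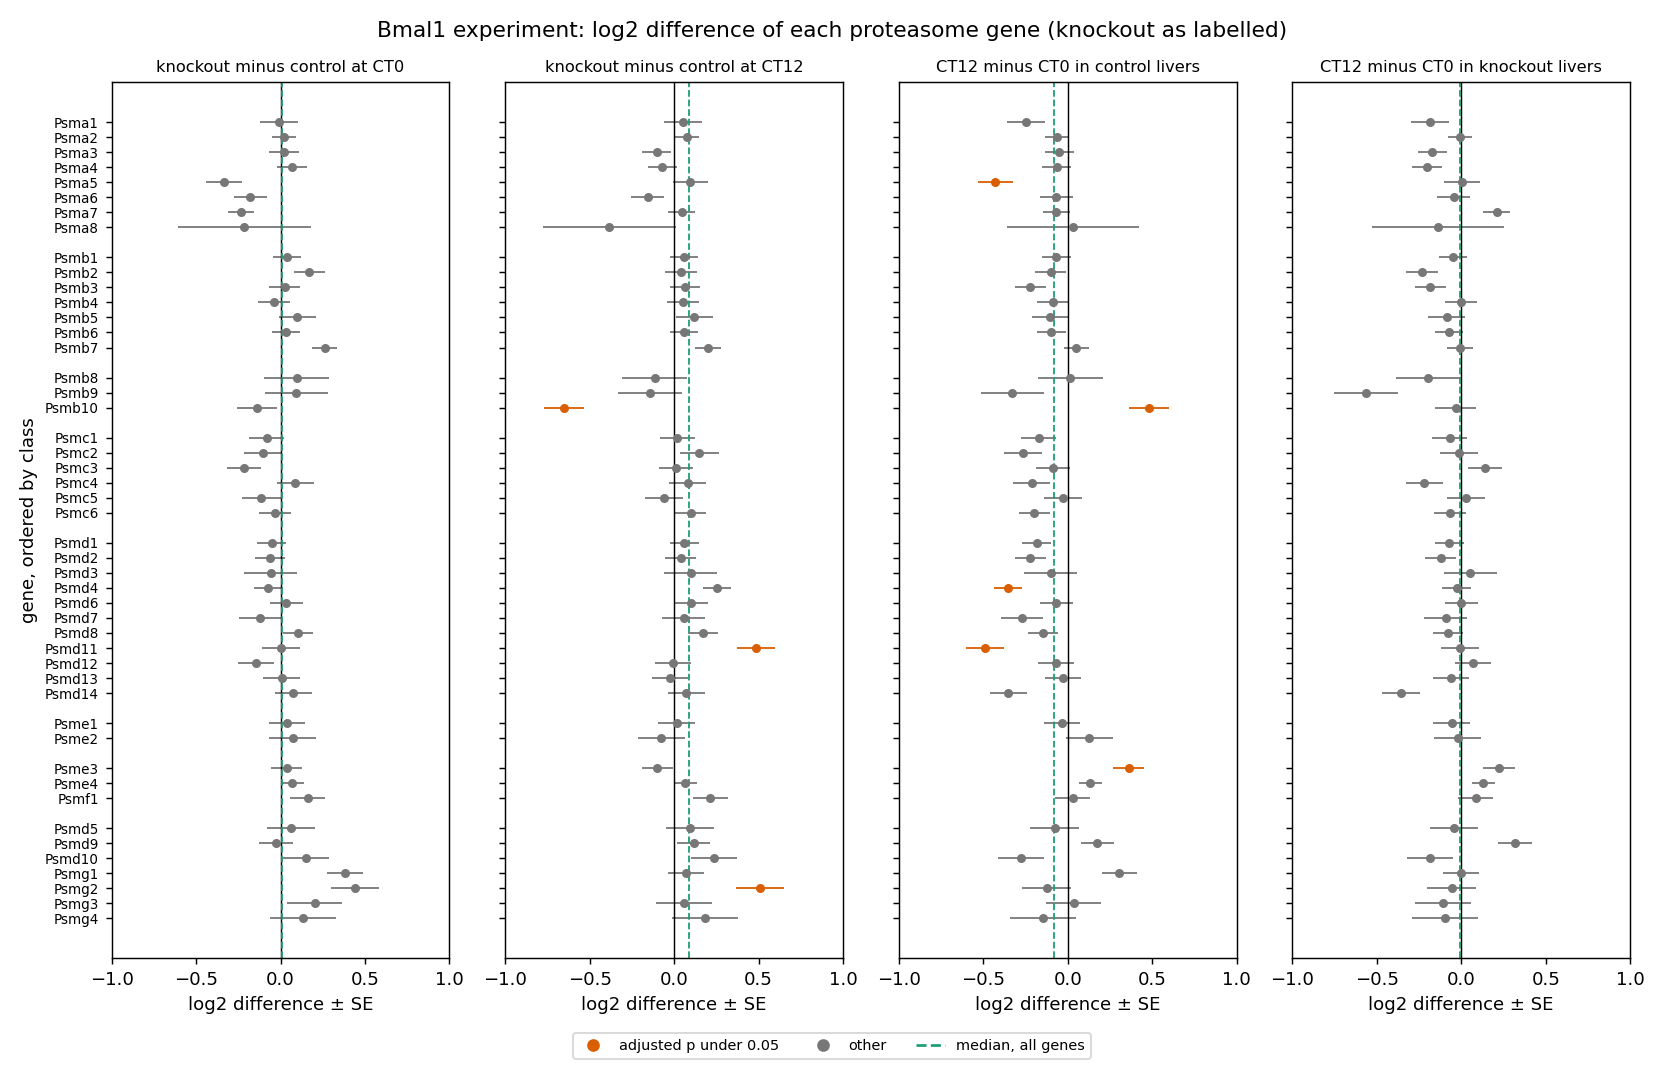
Log2 difference ± SE of the 47 proteasome genes tested in the Bmal1 experiment, ordered by class, for labelled knockout minus control at CT0 and CT12 and for CT12 minus CT0 in control and labelled knockout livers; coloured points have an adjusted p under 0.05 and the dashed line is the median of all genes. Most genes lie close to 0, the coloured points are those named in the text, and in controls the 6 ATPases and 11 non-ATPase subunits lie below 0.

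The ratio of an immunoproteasome subunit to its constitutive counterpart within a liver does not depend on the scaling of the library. Psmb10/Psmb7 was 0.149 ± 0.020 in labelled Bmal1 knockout livers at CT12, against 0.273 ± 0.022 in controls (SD, n = 3 each), with no overlap. At CT0 it was 0.152 ± 0.019 in labelled knockouts, against 0.202 ± 0.033 in controls, also with no overlap (0.135 to 0.172, against 0.177 to 0.239). The RPKM of Psmb10 itself overlapped between genotypes at CT0. That of Psmb7 did not, with 113, 100 and 106 RPKM in labelled knockouts, against 89.4, 87.0 and 89.4 RPKM in controls. The ratio at CT0 thus does not describe Psmb10 alone. Psmb8/Psmb5 was 0.419 ± 0.050 in labelled knockouts at CT12, against 0.503 ± 0.133 in controls, and overlapped. Psmb9/Psmb6 was 0.0938 ± 0.0191 in labelled knockouts at CT12, against 0.109 ± 0.028 in controls, and overlapped too.

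Of the 3 immunoproteasome subunits, Psmb10 was the only one to pass the test between genotypes. Psmb8 had 13.6, 18.3 and 22.5 RPKM in labelled knockout livers at CT12, against 19.9, 23.8 and 15.1 RPKM in controls, at -0.12 ± 0.19 (adjusted p = 0.774). Psmb9 had 6.25, 8.02 and 10.1 RPKM in labelled knockout livers at CT12, against 8.45, 10.7 and 7.75 RPKM in controls, at -0.14 ± 0.19 (adjusted p = 0.704). Their values were spread more widely within groups than those of Psmb10, whose SE was 0.12, and missing the threshold does not show that they did not differ. The activator subunits Psme1 and Psme2 were at 0.02 ± 0.11 (adjusted p = 0.952) and -0.08 ± 0.14 (adjusted p = 0.791).

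**Figure D4:**
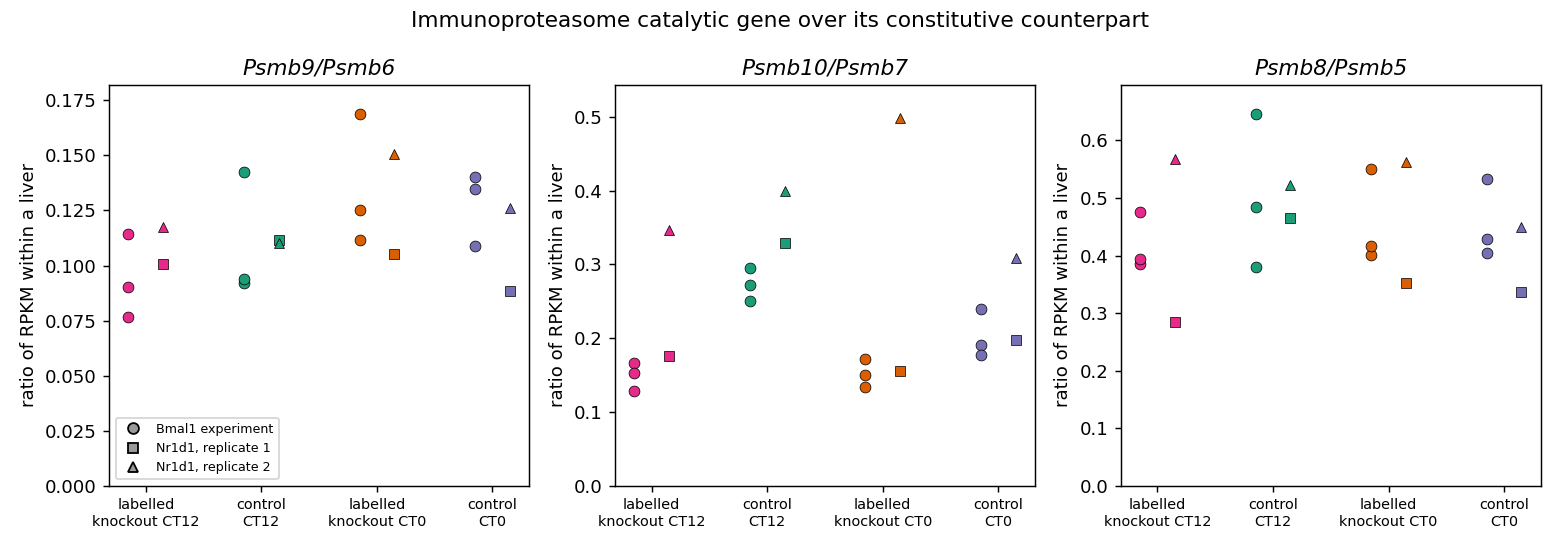
Ratio of the RPKM of each immunoproteasome catalytic gene to that of its constitutive counterpart within a liver, in labelled knockout and control livers at CT12 and CT0 of both experiments; circles are Bmal1 livers, squares and triangles are Nr1d1 replicates 1 and 2. For Psmb10/Psmb7 the Bmal1 labelled knockouts lie below the controls at CT12 (0.128 to 0.167, against 0.250 to 0.295) and at CT0 (0.135 to 0.172, against 0.177 to 0.239). In the Bmal1 livers Psmb9/Psmb6 and Psmb8/Psmb5 overlap between genotypes.

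Of 27 partners (ubiquitin genes, ubiquitin and shuttle receptors, deubiquitinases, the unfoldase p97 with its cofactors, and NRF1 with its processing factors), 2 were higher in labelled Bmal1 knockouts at CT12, where 6.46% of all genes were higher. They were the shuttle receptor Ubqln1 (0.37 ± 0.08, adjusted p = 0.0171) and Rps27a, which encodes ubiquitin fused to a ribosomal protein (0.33 ± 0.08, adjusted p = 0.0275). In control livers Sqstm1, a ubiquitin receptor of autophagy, was lower at CT12 than at CT0 (-0.64 ± 0.14, adjusted p = 0.0136). None passed in the other 3 comparisons, where 3, 7 and 2 had an unadjusted p under 0.05 by limma (genotype at CT0, time in labelled knockouts, interaction). Of all 11439 genes, 1559, 2202 and 1356 did so, in the same order. Nfe2l1, the gene of NRF1, passed in no comparison and was at -0.04 ± 0.19 in labelled knockouts against controls at CT12.

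Of 19 interferon and antigen presentation genes 18 were tested, and 2 were lower in labelled Bmal1 knockouts at CT12, where 3.22% of all genes were lower. They were the class I antigen gene H2-K1 (-0.39 ± 0.10, adjusted p = 0.0291) and the interferon-induced GTPase Igtp (-0.52 ± 0.14, adjusted p = 0.0371). The median of the list was -0.09, against 0.09 for all genes. In controls 2 were lower at CT12 than at CT0, where 7.43% of all genes were lower. They were the peptide transporter Tap2 (-0.71 ± 0.19, adjusted p = 0.0351) and the chemokine Cxcl10 (-0.39 ± 0.12, adjusted p = 0.0492), and the median of the list was -0.18. Igtp was also lower at CT12 than at CT0 in labelled knockouts (-0.72 ± 0.14, adjusted p = 0.0267).

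Immune cells are known to carry immunoproteasome genes, so their markers are given beside these values. Summed RPKM of 10 macrophage markers was 127 to 215 in labelled Bmal1 knockouts at CT12, against 116 to 176 in controls, and none passed the test (0 also at an unadjusted p under 0.05 by limma). Summed RPKM of 10 lymphocyte markers was 4.76 to 8.75 in labelled knockouts at CT12, against 4.56 to 8.33 in controls, and none of the 3 tested passed (0 also at an unadjusted p under 0.05 by limma). Summed RPKM of 7 neutrophil markers was 17.8 to 46.3 in labelled knockouts at CT12, against 5.94 to 8.80 in controls. Of these 7, 2 were called higher, where 6.46% of all genes were higher, and 5 had an unadjusted p under 0.05 by limma. For 5 erythroid markers the sum was 168 to 214 in labelled knockouts at CT12, against 82.5 to 145 in controls. None of the 3 tested passed, and 2 had an unadjusted p under 0.05 by limma. Stellate cell markers summed to 126 to 162 RPKM in labelled knockouts at CT12, against 102 to 119 RPKM in controls. Endothelial markers summed to 63.0 to 138 RPKM, against 80.5 to 86.0 RPKM. None of these passed, and 2 of 8 and 1 of 8 had an unadjusted p under 0.05 by limma. Of all 11439 genes, 2748 did so. The macrophage, lymphocyte and endothelial sums overlapped between the groups, and the neutrophil, erythroid and stellate sums did not. The part of these markers in the Psmb10 result was not tested.

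In control livers, markers of several other cell types had lower sums at CT12, at which Psmb10 and Psme3 were higher and Psmd11, Psma5 and Psmd4 lower. Summed RPKM was 116 to 176 at CT12, against 184 to 241 at CT0, for macrophage markers (0 of 10 called, 6 at an unadjusted p under 0.05 by limma) and 5.94 to 8.80, against 32.2 to 112, for neutrophil markers (5 of 7 lower). It was 80.5 to 86.0 at CT12, against 114 to 143 at CT0, for endothelial markers (2 of 8 lower) and 102 to 119, against 137 to 188, for stellate cell markers (2 of 8 lower). None of these sums overlapped between the times. The hepatocyte sums did overlap (39333 to 48297 at CT12, against 46940 to 52313 at CT0, 1 of 8 called higher). So did those of lymphocyte markers (4.56 to 8.33, against 7.86 to 8.53) and erythroid markers (82.5 to 145, against 117 to 275). Of the 8 hepatocyte markers, 3 had an unadjusted p under 0.05 by limma. Of all 11439 genes, 7.43% were called lower and 3.4% higher in this comparison, and 3019 had an unadjusted p under 0.05 by limma. The part of these markers in the results was not tested. No listed marker was at 0 in every library of a Bmal1 group. In whole liver, fewer cells of a type and less RNA per cell cannot be told apart.

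In the Nr1d1 experiment no proteasome gene passed the test in any of the 5 comparisons, with replicate number as a block and 46 members tested. Of all 12738 genes, 0.0% passed between labelled knockouts and controls at CT0, 0.0393% at CT12, 0.353% between times in controls, 0.055% between times in labelled knockouts and 0.0% in the interaction. At an unadjusted p under 0.05 by limma the members numbered 0, 0, 1, 2 and 1 in the same order. Of all 12738 genes, 575, 579, 1031, 1833 and 538 did so. With 2 livers a group, values within each replicate are given as descriptions.

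Psmb10 had 15.7 RPKM in the labelled Nr1d1 knockout liver of replicate 1 at CT12, against 25.7 RPKM in its control, and 112 RPKM in that of replicate 2, against 139 RPKM. It was lower in both labelled knockouts, at log2 differences of -0.70 and -0.31, and the blocked fit gave -0.50 ± 0.29 (limma adjusted p = 1.0). In the controls it had 25.7 and 139 RPKM at CT12 (replicates 1 and 2), against 14.7 and 91.4 RPKM at CT0, which are log2 differences of 0.79 and 0.60, and the fit gave 0.69 ± 0.29 (adjusted p = 0.595).

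Psmd11 had 38.9 and 152 RPKM in the labelled Nr1d1 knockout livers at CT12 (replicates 1 and 2), against 26.7 and 129 RPKM in controls, which are log2 differences of 0.53 and 0.23. In the controls it had 26.7 and 129 RPKM at CT12, against 33.0 and 195 RPKM at CT0, at -0.30 and -0.60. For Psmb10 and for Psmd11 the signs within both replicates were those of the called differences of the Bmal1 experiment, for genotype at CT12 and for time in controls. The genotype and the time differences share the control livers at CT12 in each experiment.

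Of the other called genes of the Bmal1 experiment, Psma5 and Psmd4 had the sign of their call in both replicates of the Nr1d1 livers. Between CT12 and CT0 in Nr1d1 controls, Psma5 had log2 differences of -0.13 and -0.06 in replicates 1 and 2 and Psmd4 of -0.11 and -0.20, while Psme3, at 0.34 and -0.16, changed sign between replicates. Psmg2 had -0.15 and -0.20 between labelled knockouts and controls at CT12, opposite in sign to the Bmal1 experiment. Psmb8 was higher at CT12 in both controls (0.49 and 0.39) but differed in sign between replicates for genotype at CT12 (-0.47 and 0.22).

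Psme4 had 21.7 and 29.5 RPKM in labelled Nr1d1 knockout livers at CT12, against 14.4 and 19.7 RPKM at CT0, at 0.58 and 0.57 in replicates 1 and 2, and the blocked fit gave 0.57 ± 0.20 (limma adjusted p = 0.293). Psmd14 had 0.26 and 0.39 between labelled knockouts and controls at CT12, and the fit gave 0.33 ± 0.17 (adjusted p = 1.0).

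The labelled knockout liver of replicate 2 at CT0 stood apart. Between labelled knockouts and controls at CT0, the interquartile range of the log2 differences of all genes was 0.658 in replicate 2 and 0.281 in replicate 1. All 3 immunoproteasome and all 7 core beta subunits were above 0 in replicate 2, against 1 of 3 and 2 of 7 in replicate 1. Psmb10 was at -0.26 in replicate 1 and 0.77 in replicate 2, with 12.2 RPKM in the labelled knockout against 14.7 RPKM in the control of replicate 1, and 156 against 91.4 RPKM in replicate 2. Values at CT0, and between times in labelled knockouts, therefore rest on which replicate is read: the median of the members for genotype at CT0 was -0.11 in replicate 1 and 0.18 in replicate 2.

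**Figure D5:**
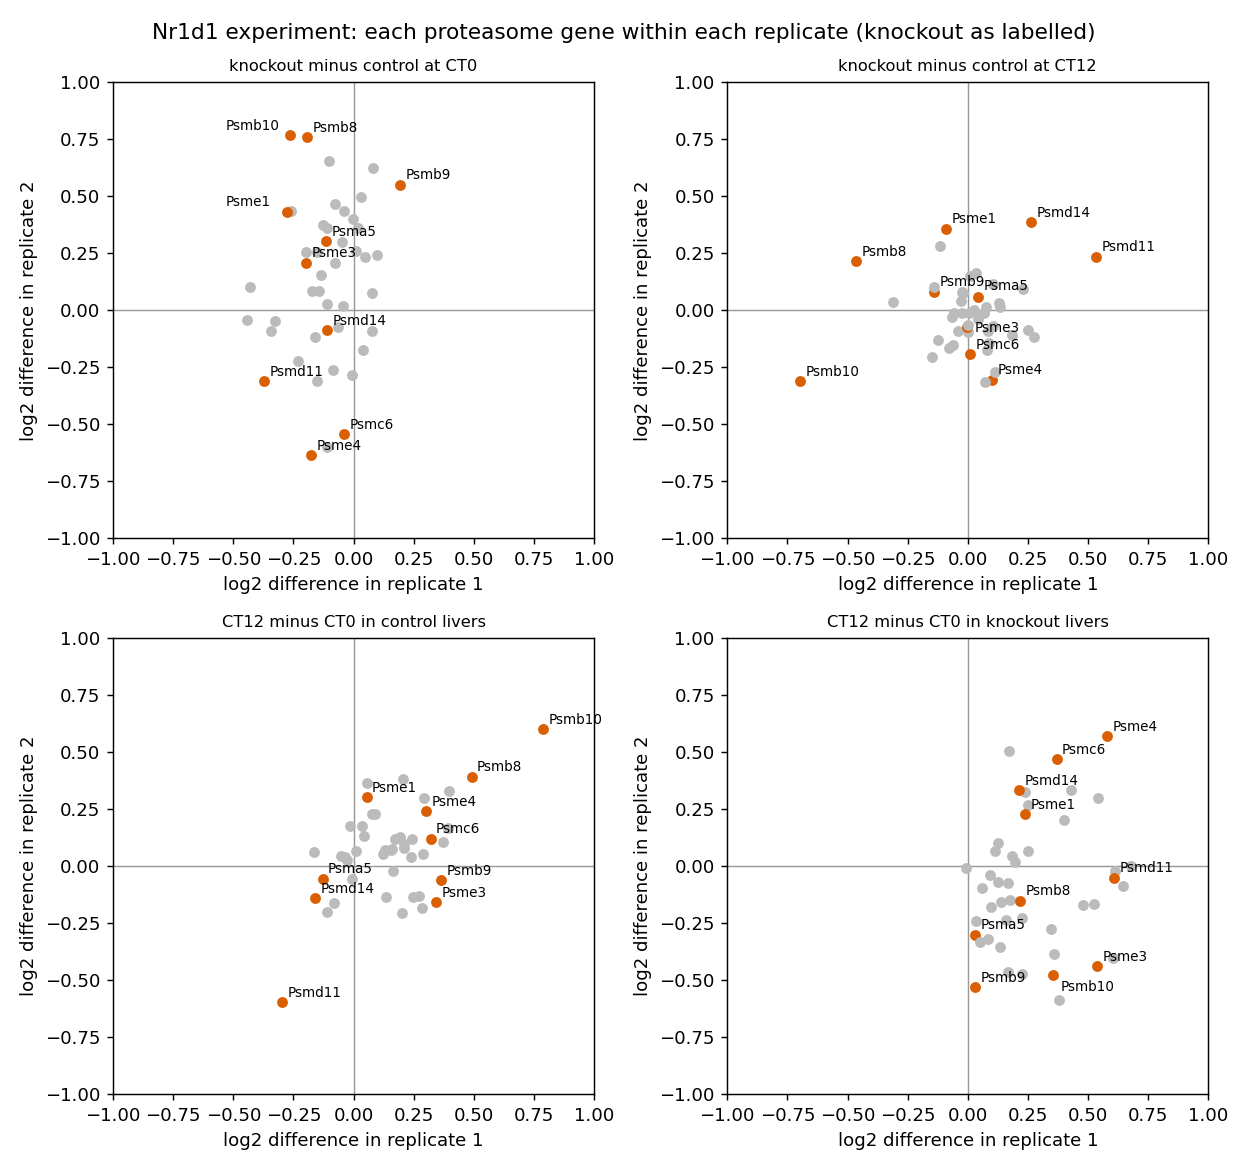
Log2 difference of the 46 proteasome genes tested in the Nr1d1 experiment, replicate 1 on the horizontal axis and replicate 2 on the vertical axis, for 4 comparisons; coloured points are genes named beside them. Psmb10 (-0.70 and -0.31) and Psmd11 (0.53 and 0.23) lie on opposite sides of 0 in both replicates for labelled knockout minus control at CT12, and change sides for CT12 minus CT0 in controls.

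The signs within both replicates were the same for 22 of the 46 members for genotype at CT12 (11 higher, 11 lower), which is 47.8%, against 54.5% of all genes (31.0% higher, 23.5% lower). Between times in controls they were the same for 33 members (27 higher, 6 lower), which is 71.7%, against 52.4% of all genes (36.9% higher, 15.5% lower). For genotype at CT0 they were the same for 22 members (8 higher, 14 lower), which is 47.8%, against 50.9% of all genes (17.8% higher, 33.2% lower). Between times in labelled knockouts they were the same for 17 members (16 higher, 1 lower), which is 37.0%, against 55.8% of all genes (47.0% higher, 8.78% lower). Pairing within replicates does not make the members independent of one another, since each replicate is 1 liver per group.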

How the data were processed

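RNA-seq values were deposited by the authors as RPKM, 1 value per Ensembl transcript and library, in 20 liver libraries prepared with a TruSeq RNA kit from total RNA, per the labels' protocols. Per the submitters' processing notes, TopHat2, bedtools 2.19.1 and the mouse build mm9 were used, and Bowtie as well except in Nr1d1 replicate 2. What annotation, read filters or strand setting was used is not given in the sources used here. No 4C file of the series was used.

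Tables were joined on 46585 transcripts, and each of 22322 symbols was represented by its best expressed transcript. Depth is not given. Whole reads behind the RPKM of the 48 members were recovered in the Bmal1 libraries from the steps between values (tolerance 0.05), up to a factor common to the libraries, so they are lower limits. They were used only to describe precision.

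Each experiment was fitted with limma 3.58.1 (R 4.3.3; lmFit, contrasts.fit, eBayes with trend). The values fitted were log2(RPKM + 0.5), and a gene was kept where its libraries averaged 0.5 RPKM or more (11439 in the Bmal1 and 12738 in the Nr1d1 experiment). The design held 4 group means. Fold changes of low genes are understated on this scale. Tests were two-sided. P-values were adjusted after Benjamini and Hochberg over all genes of a comparison, and called means an adjusted p under 0.05. The limma fits and the recovery of reads were tried on simulated data, and the other steps were not. Tables were handled with pandas 2.3.3 in Python 3.11.15.

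In the Nr1d1 experiment deviations of same-numbered libraries from their group means correlated at 0.82 to 0.88, and replicate 2 alone is described as paired-end, so replicate number was a block there. Per the labels, RNA was extracted from each liver, and knockout and wild-type mice were taken in pairs, so a library is taken as 1 liver. P-values measure the spread between these libraries.

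The members, the other lists of genes and the rule for which genes to name were chosen with earlier results of these data known. Named were all immunoproteasome and interferon-induced activator genes with their constitutive counterparts, every member called and the targeted genes. So were the 2 highest and 2 lowest members by log2 difference in a Bmal1 comparison and by level in a class. Members at the extremes of an Nr1d1 comparison are named only in part. Values are not given for every comparison in which a named member was extreme. Called cell markers are counted, most without names. Called genes of the partner and interferon lists are named, up to 5 per list and comparison. A gene of the partner list is not reported here. Psmb1, Psmb2, Psma2, Psma4, Psmd9 and Psmd14 were described further after their values were seen. Alternatives were other pseudocounts (0.1 and 1), no filter and a filter at 2 RPKM, median centring, quantile normalization, fits of only the groups compared, sums over transcripts, the other use of the replicate block and leaving out each library. Sequences are from RefSeq.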

Additional observations from a re-analysis of the deposited data

How the results depend on the processing

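No result changed sign among those called. With median centring or with no filter on RPKM, the number of called proteasome genes was 1 for labelled Bmal1 knockout against control at CT12 (3 as reported), and with no filter it was 2 for CT12 against CT0 in controls (5 as reported). Leaving out 1 library gave 1 to 3 and 1 to 6 calls in these comparisons, 0 to 1 for genotype at CT0, where Psmg2 passed without labelled knockout replicate 2, and 0 in the others. Fewer samples are by construction part of these losses, and the cause was not tested otherwise. The median log2 difference of the members moved with median centring from the reported 0.06 to -0.036 for genotype at CT12 and from 0.05 to -0.043 for the interaction in the Bmal1 experiment. In the Nr1d1 experiment it moved with median centring to -0.17 for CT12 against CT0 in labelled knockouts (0.05 as reported, and -0.083 with quantile normalization) and to -0.12 for the interaction (-0.00 as reported). Leaving out 1 library gave medians of -0.14 to 0.23 and -0.22 to 0.092 in these, and -0.11 to 0.23 for genotype at CT0 (0.02 as reported). Median centring changed the median of all genes for CT12 against CT0 in labelled Nr1d1 knockouts from 0.16 to -0.05. Among all genes called between labelled Bmal1 knockouts and controls at CT12, 66.8% were higher as deposited, 46.6% with median centring and 52.4% with quantile normalization, and between times in controls 31.4%, 49.4% and 49.1%. Replicate number as a block left 5 proteasome genes called between times in the Bmal1 controls and 2 for genotype at CT12, without Psmg2, and 0 in the other 3 comparisons. Deviations of same-numbered Bmal1 libraries correlated at -0.06 to 0.12, and 5 of 12 libraries correlated best with their own number. Little of the spread thus went with the number, which does not show that the livers were unpaired. No call was made in the Nr1d1 experiment with or without the block.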
